A study of Glycine max with 7 samples.

Results

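GLYMA.04G093300 is a transcription factor of soybean (Glycine max), and its places on the genome were mapped by chromatin immunoprecipitation followed by sequencing (ChIP-seq) in embryos at the cotyledon stage. A site was defined by position alone: a peak in 1 replicate and all peaks in the second one that share at least 1 bp with it were merged. This gave 30906 sites, out of 70496 sites obtained in the same way for the 2 factors of the study together. The study held 7 samples, of which 2 were ChIP libraries for GLYMA.04G093300, 2 were ChIP libraries for a second factor and 3 were input chromatin, the last not analysed here. Both GLYMA.04G093300 libraries came from greenhouse plants of cultivar Williams 82, whose embryos were dissected from seeds 3.5 to 4.5 mm long, fixed in 1% formaldehyde and sonicated to fragments of 100 to 500 bp. Each library used 2 µg of an antibody raised against a peptide covering residues 117 to 132 of the protein. The embryos were used whole, so the values average over all their cell types. No library from embryos lacking the protein is among the samples, and whether the antibody also binds a related protein cannot be told from them.

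In the peak lists the factor carries the name HB22, and HB is the usual symbol for homeobox genes in Arabidopsis. Homeobox genes encode proteins with a homeodomain, a small fold of helices that binds short, AT-rich stretches of DNA. In a legume embryo of the cotyledon stage, the storage organs of the seed are present. A ChIP-seq peak is a stretch with more sequenced fragments than its background. Its summit is the base where they pile up highest, the best estimate a peak list gives of where the protein touches the DNA, and its fold is that height over background as the authors' peak caller computed it within 1 library. The build of the genome is not given in the sources used here, so positions are those of the deposited lists, and no gene or DNA sequence is assigned to a site.

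At the strongest sites the 2 libraries placed their summits at most 66 bp from each other. Sites were ranked by the lower of their percentiles of fold in the 2 lists. The 10 highest lay on 7 chromosomes, measured 520 to 1251 bp, and had summits 5 to 66 bp apart between the replicates. The highest, on chromosome 14 from 42458042 to 42458710, reached 28.4-fold enrichment in replicate 1 and 20.3-fold in replicate 2, with summits 12 bp apart. The second, on chromosome 8 from 6830632 to 6831191, had folds of 28.2 and 20.2 and summits 33 bp apart. The third, on chromosome 2 from 39573147 to 39574356, had folds of 27.3 and 19.9. Its summits were 27 bp apart although its peak was 871 bp wide in replicate 1 and 1210 bp in replicate 2. At the fourth, on chromosome 4 from 9727246 to 9728201, the summits lay 5 bp apart, and its fold of 32.4 was the highest in the list of replicate 1.

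The other 6 sites of highest rank had folds between 22.3 and 25.02 in replicate 1 and between 17.1 and 19.9 in replicate 2. Chromosome 14 carried 2 of them. At the one from 3127476 to 3127995 the folds were 23.1 and 19.9, and the summits were 66 bp apart, the greatest distance of the 10. At the other, from 43803292 to 43804542, the folds were 22.3 and 17.5, and it was the single site among the 10 in which 1 peak of replicate 2 covered 2 peaks of replicate 1. A site on chromosome 19 from 45880265 to 45881138 had folds of 25.02 and 17.3 and summits 21 bp apart. In both libraries its summit lay left of the middle, at 0.357 and 0.345 of the width of its peak. The remaining 3 lay on chromosome 6 from 8390567 to 8391614, on chromosome 2 from 45775407 to 45776059 and on chromosome 13 from 32211967 to 32212953, with summits 10, 23 and 40 bp apart. The rank uses both replicates, so the presence of these sites in both lists is part of how they were chosen.

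Most sites were made of 1 peak from each library. This held for 29311 of the 30906 sites, or 94.8%. In 748 sites 2 peaks of replicate 1 met 1 peak of replicate 2, in 710 sites the reverse occurred, and the remaining 137 sites joined 4 or 5 peaks. At sites of 1 peak each, the 2 peaks shared a median of 287 bp, which was 72.4% of the stretch they covered together, with quartiles of 58.6% and 83.2%. One peak lay wholly inside the other at 46.0% of these sites. The peak of replicate 1 was the wider at 55.9% of them, with median widths of 369 and 346 bp. As many as 5 peaks were joined at 12 sites. The best ranked of these occupied 41095863 to 41097972 of chromosome 19, had folds of 12.9 and 9.62, and had its strongest summits 24 bp apart. Another, on chromosome 20 from 45863411 to 45864737, had its strongest summits 959 bp apart, so the libraries named different ends of that site as its highest point.

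The density of sites differed 2.15-fold between chromosomes, and the order of the chromosomes was nearly the same in both libraries. Over the 20 chromosomes there were 32.4 sites per Mb of span, where the span of a chromosome runs to the last peak end in the 2 lists. Chromosome 13 was the densest with 2316 sites, or 50.5 per Mb, followed by chromosome 11 with 47.1, chromosome 17 with 44.7 and chromosome 8 with 41.4 per Mb. Chromosome 14 was the sparsest with 1151 sites, or 23.5 per Mb, and chromosome 18, which has the longest span at 58.0 Mb, held 24.1 per Mb. The ratio of the densest to the sparsest was 2.15 for sites, 2.09 for the peaks of replicate 1 and 2.06 for those of replicate 2. The number of sites on a chromosome did not go with its span across the 20 chromosomes (Pearson's r = 0.0453, Spearman's rho = 0.0226). This is a description over chromosomes of 1 genome, which share their libraries.

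The peak densities of the 2 libraries per chromosome had a Spearman's rho of 0.997 (n = 20 chromosomes), and their counts in 957 bins of 1 Mb had one of 0.989. Replicate 1 held between 1.21 times (chromosome 16) and 1.31 times (chromosome 3) the peaks of replicate 2. Width and fold varied little between chromosomes. The median site width per chromosome ranged from 424 bp on chromosome 16 to 461 bp on chromosome 17. The median fold of joined sites in replicate 1 ranged from 4.77 on chromosome 18 to 5.05 on chromosome 17. In replicate 2 it ranged from 4.0003 on chromosome 9 to 4.18 on chromosome 17. Scaffolds outside the chromosomes carried 157 sites on 38 sequences.

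**Figure D1:**
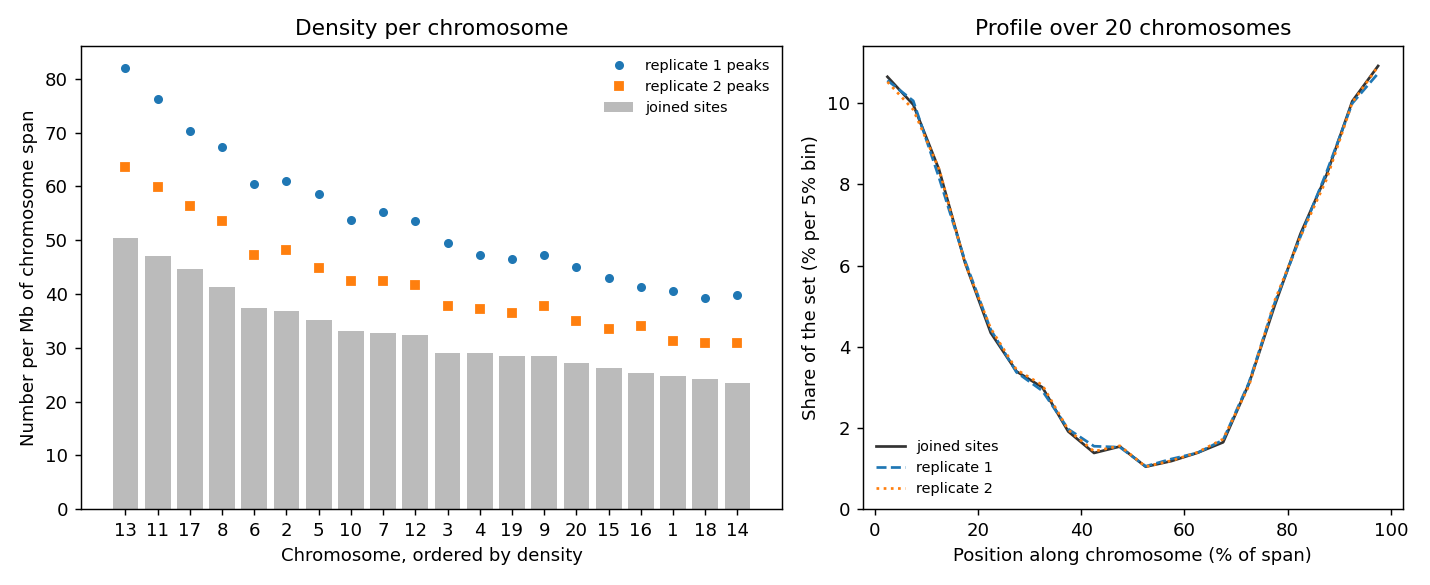
Left: number of joined sites (bars) and of peaks in each library (points) per Mb of chromosome span, for the 20 chromosomes in order of density. Right: share of the joined sites and of each library's peaks in 20 bins of equal size along the chromosomes, all chromosomes pooled. Density falls from 50.5 sites per Mb on chromosome 13 to 23.5 on chromosome 14, and the curves of the 2 libraries lie on each other.

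Along the chromosomes, all pooled, the sites formed a U. In soybean, genes are concentrated towards the chromosome ends, and broad repeat-rich stretches surround the centromeres. The first 5% of the span held 10.6% of sites and the last 5% held 10.9%, while the least occupied 5%, just past the midpoint, held 1.05%. The outermost 10% at each end together held 41.6% of sites and the middle 50% held 19.6%. The share in the outermost 10% was 41.3% ± 0.0427 of peaks (SD, n = 2 libraries). It ranged widely between chromosomes, from 18.4% of the sites on chromosome 13 to 59.9% on chromosome 4. On chromosome 4 the middle 50% held 7.32% of sites, and on chromosome 13 it held 53.2%. The crowding at the ends was thus absent on chromosome 13. Width and fold hardly followed the pooled profile. The median peak width was 318 bp in the outermost 10% and 311 bp in the middle 50% in replicate 1, and 320 and 311 bp in replicate 2. Over the same peaks, single ones included, the median fold was 4.25 and 4.20 in replicate 1, and 3.86 and 3.83 in replicate 2.

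At the scale of 1 Mb, the densest 10% of the 957 bins held 30.1% of the sites, and 52 bins held none. The median bin had 16 sites. The densest, the fourth Mb of chromosome 11 (3000001 to 4000000), had 133 sites, with 214 peaks in replicate 1 and 167 in replicate 2. The same Mb of chromosome 6 had 126 sites, with 197 and 144 peaks, and chromosome 10 from 49000001 to 50000000 had 119 sites, with 186 and 144 peaks. Bins with 100 sites or more numbered 28 and together held 9.81% of all sites.

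Neighbouring sites lay a median of 8511 bp apart, summit to summit, but the distances were spread over several orders of magnitude. The middle 50% of the 30729 distances ran from 2651 to 23695 bp, and the mean was 30817 bp. Below 1 kb there were 7.92% of the distances, below 2 kb 19.8% and below 10 kb 53.9%. At the other end, 5.09% of distances exceeded 100 kb, and these 1565 stretches together made up 54.0% of the length between the first and last sites of the chromosomes. In bins of 100 bp the commonest distance was 800 to 900 bp, with 486 pairs, and the shortest was 228 bp. Sites cannot lie closer than their own widths allow, and no 2 peaks within a library were less than 52 bp apart at their edges.

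The longest stretch without a site was 3.56 Mb, on chromosome 13 between summits at 5481591 and 9046527. It was not empty in either list: replicate 1 had 5 peaks inside it and replicate 2 had 1, none of which overlapped. The next were 3.46 Mb on chromosome 6 between 30991207 and 34446446, with 2 and 1 peaks inside, and 3.20 Mb on chromosome 19 between 14572476 and 17772471, with 3 peaks of replicate 1 and none of replicate 2. Stretches over 1 Mb numbered 86.

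Spacing followed the position on the chromosome. In the outermost 10% at each end the median distance was 7205 bp, and in the middle 50% it was 14658.5 bp. The short distances differed less than the long ones did: 21.2% of distances were below 2 kb in the outer part and 17.0% in the middle. Chromosome 17 had the tightest spacing, with a median of 6392.5 bp, and chromosome 16 the widest, with 11036 bp. Chromosome 13, the densest, had a median of 7691 bp.

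**Figure D2:**
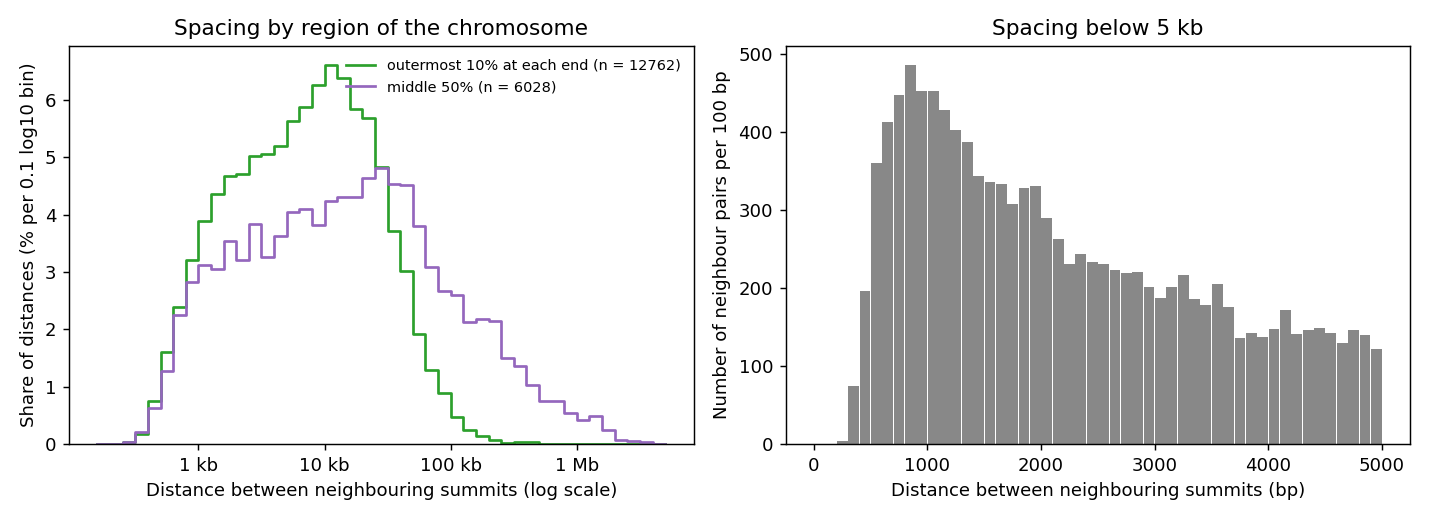
Left: distances between the summits of neighbouring sites on a log scale, as a share of the distances in the outermost 10% of the chromosomes at each end and in the middle 50%. Right: number of neighbouring pairs per 100 bp below 5 kb. The outer curve peaks near 10 kb and the middle one reaches beyond 1 Mb, while pairs are commonest at 800 to 900 bp.

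Sites closer than 2 kb formed chains. Of the sites on chromosomes, 10778 or 35.1% lay within 2 kb of a neighbour. These made 3655 pairs, 963 chains of 3 or 4 sites and 75 chains of 5 or more. The 3 longest had 7 sites each, on chromosome 3 from 42469281 to 42474333, on chromosome 8 from 44100866 to 44106977 and on chromosome 18 from 3655930 to 3663435. Within the chain on chromosome 3 the folds ran from 2.57 to 10.1 in replicate 1 and from 3.04 to 6.69 in replicate 2. That chain held sites of both high and low fold. Over the genome the rank of a site did not go with that of its neighbour, with a Spearman's rho of 0.0272 over 2435 pairs less than 1 kb apart and 0.00404 over 3650 pairs 1 to 2 kb apart. The 4654 sites whose nearest neighbour lay less than 1 kb away had a median width of 428 bp and median folds of 4.79 and 4.09 in replicates 1 and 2. The 511 sites with no neighbour within 100 kb were close to these, at 416 bp and folds of 4.71 and 4.09. Width was greatest where the nearest neighbour lay 1 to 2 kb away, with a median of 477 bp and folds of 5.06 and 4.20 over 6124 sites. Sites less than 1 kb apart cannot be wide without merging. The width of that class is therefore limited by the definition of a site, and its likeness to isolated sites cannot be read from width.

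The width of a site had a median of 445 bp, with quartiles of 346 and 601 bp, and 5% of sites were wider than 981 bp. The sites together covered 15.8 Mb. A width of 1 kb or more was reached by 1424 sites, or 4.61%. The widest, on chromosome 10 from 48537441 to 48540872, measured 3432 bp. Replicate 1 called nearly all of it as 1 peak of 3312 bp and replicate 2 as 2 peaks, and yet their strongest summits lay 31 bp apart, with folds of 8.81 and 7.67. The second widest, 3107 bp on chromosome 5 from 37790733 to 37793839, had 2 peaks in each library. The strongest of these differed between the libraries, with folds of 7.56 and 3.99 and summits 920 bp apart. The next 3, on chromosomes 13, 11 and 17, measured 3078, 2595 and 2572 bp. Their strongest summits lay 9, 11 and 44 bp apart. None of the 5 widest sites was among the 10 of highest rank.

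Peak width had a hard lower limit in each list. It was 191 bp in replicate 1, where 1774 peaks had exactly this width, and 188 bp in replicate 2, where 1149 did. Peaks at the limit were found in the other library less often than the rest: 23.9% of those in replicate 1, against 62.7% of its whole list, and 49.96% of those in replicate 2, against 79.99%. Within a list wider peaks had a higher fold, with a Spearman's rho of 0.557 over the 50665 peaks of replicate 1 and 0.543 over the 39721 of replicate 2. Both values come from the same pile of fragments.

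Summits were most central in peaks of 250 to under 500 bp and less so in both narrower and wider ones. Over all peaks, 69.9% of summits in replicate 1 and 68.1% in replicate 2 fell in the central 1/3 of the peak. It was 67.2% and 64.5% in peaks under 250 bp, and highest in those of 250 to under 500 bp, at 79.1% and 76.8%. In peaks of 500 to under 1000 bp it dropped to 47.7% of 8443 peaks in replicate 1 and 50.9% of 6886 in replicate 2, and at 1000 bp or more it was 42.1% of 783 and 41.9% of 704. The central 1/3 was still the commonest in peaks of 500 to under 1000 bp, where the first and the last 1/3 held 26.6% and 25.7% of summits in replicate 1 and 24.7% and 24.4% in replicate 2. On a finer scale such peaks had 2 favoured places for the summit. In replicate 1 the stretch from 0.25 to 0.3 of the width held 9.42% of summits and that from 0.65 to 0.7 held 9.29%, while the stretch from 0.45 to 0.5, at the middle, held 7.11%. In replicate 2 the favoured places were 0.3 to 0.35 with 9.15% and 0.65 to 0.7 with 8.42%, against 7.71% at 0.45 to 0.5. The pattern was less clear there, because the share rose slightly again around the middle. It was 7.26% at 0.4 to 0.45, 7.83% at 0.55 to 0.6 and 7.25% at 0.6 to 0.65.

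The distance from the summit to the nearer edge of the peak grew more slowly than the width. In replicate 1 its median was 145 bp in peaks of 300 to 399 bp, close to the middle of such a peak. It was 182 bp in peaks of 500 to 599 bp and 233 bp in those of 700 to 799 bp, well short of the middle. Replicate 2 gave 143, 183 and 238.5 bp. The peaks of 500 to under 1000 bp with a central summit had a median fold of 6.46 in replicate 1, against 5.41 and 5.39 for those with the summit in the first and the last 1/3. The same order held in replicate 2, at 5.65 against 4.74 and 4.77. Widths in these groups were close, at 605 bp for central summits and 619 and 624 bp for the others in replicate 1.

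**Figure D3:**
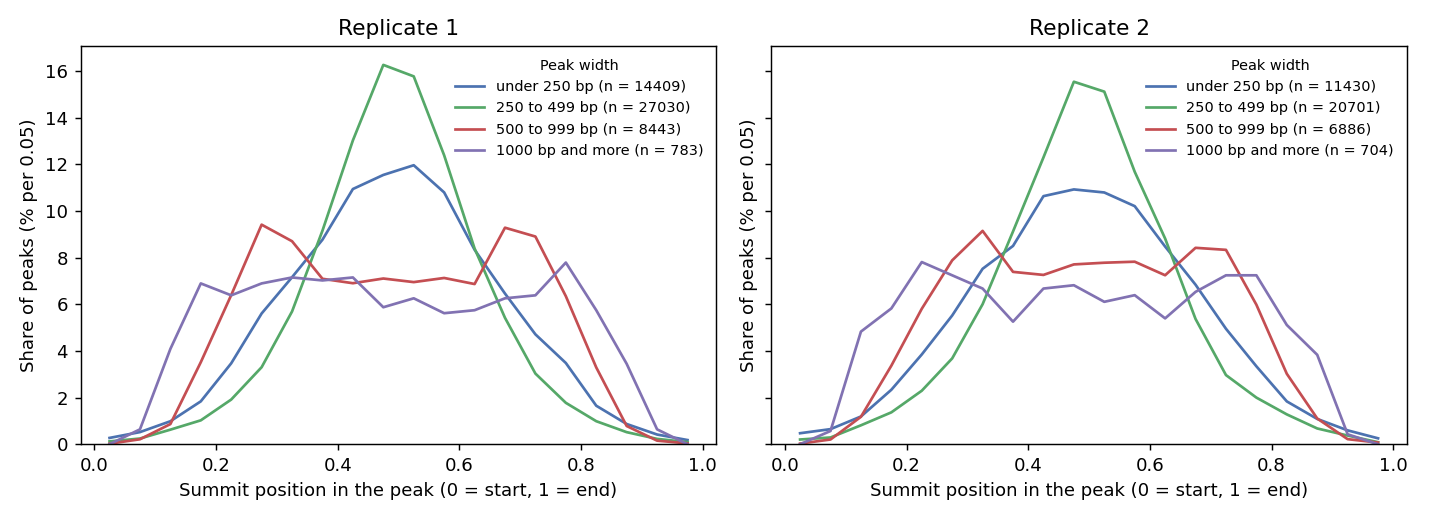
Position of the summit within the peak, from 0 at the start to 1 at the end, as a share of the peaks in 4 classes of width, for each library. Peaks of 250 to under 500 bp have 1 maximum at the middle. Peaks of 500 to under 1000 bp have their highest shares on either side of it in both libraries, with a smaller rise around the middle in replicate 2.

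Summits were divided almost evenly between the sides of the peak. The summit lay before the exact middle in 51.1% of the peaks of replicate 1 and after it in 48.4%, and in 51.3% and 48.2% of those of replicate 2. The median shift was -1.5 bp in both. Summits at the very edge were rare: 4 peaks of replicate 1 and 5 of replicate 2 had theirs on the first base, and 4 and 3 on the last.

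In wide peaks with a summit off the middle, the other library placed it at the same end more often than at the opposite one. At 3894 sites of 1 peak each, both peaks measured 500 to under 1000 bp. Where replicate 1 had its summit in the first 1/3 of the peak, replicate 2 had it in the first 1/3 at 437 sites, in the middle at 369 and in the last 1/3 at 128. Where replicate 1 had it in the last 1/3, the numbers were 122, 367 and 418. The summits fell in the same 1/3 at 56.8% of these sites, and the relative positions had a Pearson's r of 0.399. The libraries placed the summit at opposite ends of the peak at 250 sites and the same end at 855. Over all sites of 1 peak each, position was measured from the middle of the joined site. Among the 12100 of them under 400 bp wide, replicate 1 had its summit outside the central 1/3 at 2006, and replicate 2 had it on the same side at 45.4% of these. The share was 64.9% at 400 to under 600 bp, 75.6% at 600 to under 1000 bp and 79.0% at 1000 bp or more. The middle of a joined site is set by the outer edges of both peaks. Where 2 short peaks with central summits are shifted against each other, the summits fall on opposite sides of it by construction. The share in narrow sites therefore cannot show whether the libraries disagree there.

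Summit positions came closer together with rank. Over the sites of 1 peak each the summits were a median of 42 bp apart, with quartiles of 19 and 83 bp, and 5.76% were more than 200 bp apart. In the lowest 10% by rank the median was 58 bp, in the fifth 10% it was 47 bp and in the highest 10% it was 26 bp, although the sites widened from 379 to 611 bp over this range. Summits within 50 bp of each other made up 44.2% of the lowest and 77.1% of the highest 10%. The ranks of fold themselves agreed moderately, with a Spearman's rho of 0.565 over the 30906 sites. In replicate 1, 5016 sites held a peak from the highest 10% of its list by fold, and in replicate 2, the shorter list, 3961 sites did. These had 2714 sites in common.

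Peaks seen in 1 library only were narrower and weaker than those in joined sites, in both libraries. Replicate 1 held 18880 such peaks, 37.3% of its list, and replicate 2 held 7950, or 20.01%. Their median width was 251 bp in replicate 1 and 237 bp in replicate 2, against 372 and 349 bp for joined peaks. In replicate 1 the median fold of single peaks was 3.65 and that of joined peaks 4.86, and in replicate 2 these medians were 3.35 and 4.07. In each library the upper quartile of the fold of single peaks, 4.16 and 3.78, lay below the median of the joined ones. A wide peak has more room to be overlapped, so the difference in width is in part built into the definition of a site.

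**Figure D4:**
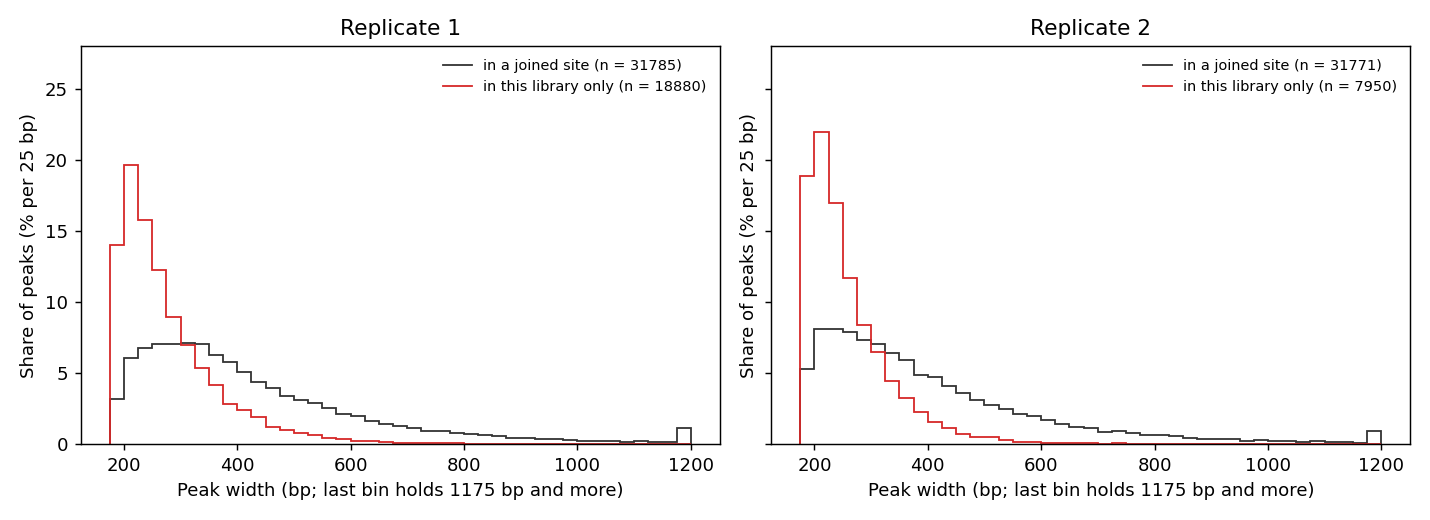
Width of peaks that are part of a joined site and of peaks seen in 1 library only, in bins of 25 bp as a share of each set, for replicate 1 and replicate 2. Peaks of 1 library only crowd at 200 to 225 bp, with medians of 251 and 237 bp, and joined peaks have medians of 372 and 349 bp.

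Both width and fold went with recurrence when the other was held within 20% groups of the list. Among the peaks of replicate 1 with the lowest fold, 27.0% of the narrowest and 66.6% of the widest group were found in replicate 2. Among its narrowest peaks, the share rose from 27.0% at the lowest fold to 51.4% in the second highest group of fold. In replicate 2 the lowest-fold peaks recurred in 55.9% of the narrowest and 93.3% of the widest group. Among the narrowest peaks of replicate 2, fold made little difference over the lowest 3 groups, at 55.9%, 55.6% and 59.1%. By fold alone in 10 groups, recurrence rose at each step in replicate 1, from 35.1% to 99.6%. In replicate 2 it was 67.7% in the lowest group, 63.5% in the next and 66.4% in the one after it, then rose at each step to 99.8%. Within every one of these groups the joined peaks were wider at the median than the single ones, as in the fifth group of replicate 1, at 314 against 254 bp.

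**Figure D5:**
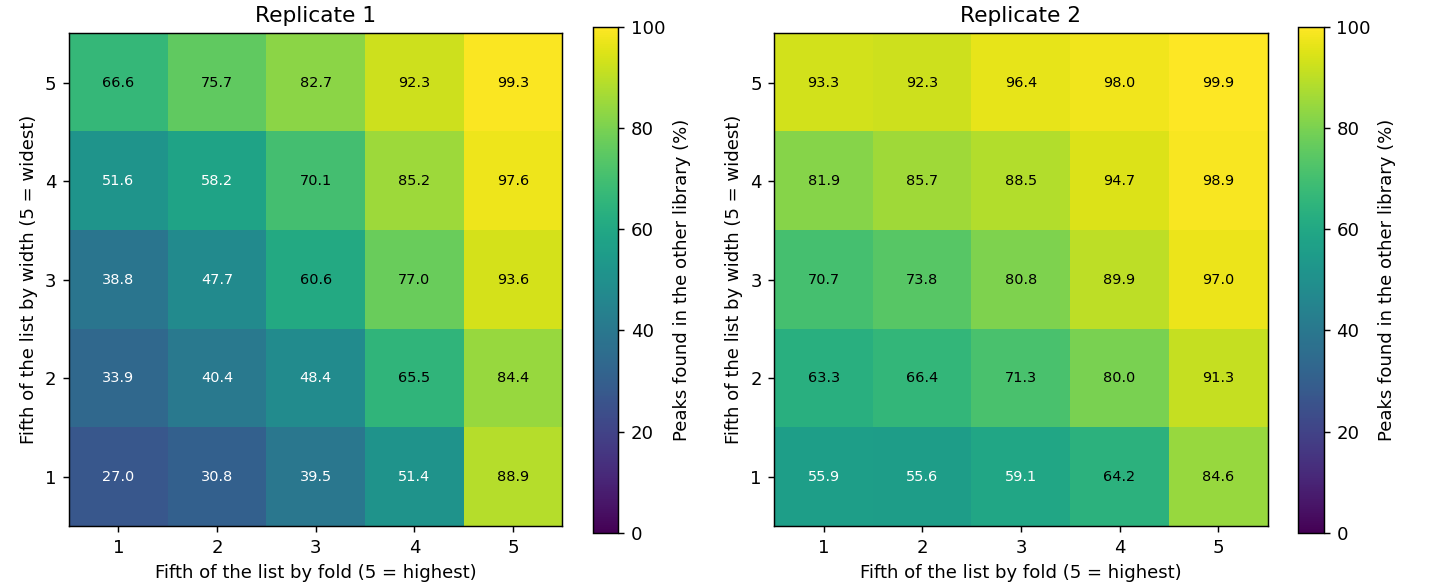
Share of peaks found in the other library, for the peaks of each library split into 5 groups of equal number by fold (horizontal) and by width (vertical). The share runs from 27.0% to 99.3% in replicate 1 and from 55.6% to 99.9% in replicate 2. The cells for the narrowest peaks of highest fold hold only 9 and 13 peaks.

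Recurrence varied little with the place of a peak. By chromosome, it ran from 60.1% (chromosome 3) to 65.8% (chromosome 17) in replicate 1 and from 76.2% (chromosome 16) to 81.8% (chromosome 13) in replicate 2. In the outermost 10% at each end it was 63.1% and 80.6% in the 2 libraries, and in the middle 50% it was 61.9% and 78.9%. Single peaks had nearly the same profile along the chromosomes as joined ones: 41.0% and 40.0% of them lay in the outermost 10%, against 41.6% of the joined peaks in each library. Their summits were also less central at similar width. Among peaks of 250 to under 500 bp, 72.7% of single peaks in replicate 1 had the summit in the central 1/3, against 82.2% of joined peaks, and in replicate 2 the shares were 68.6% and 78.3%. The joined peaks in this class were still wider, at 350.5 against 307 bp and 345 against 300 bp.

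Few single peaks came within 100 bp of a peak of the other library. Only 2.31% of those in replicate 1 and 4.45% of those in replicate 2 had a peak of the other library within 100 bp of their edge. Within 500 bp there was one for 14.3% and 22.4%, and within 1 kb for 25.6% and 36.4%. The median distance to the nearest peak of the other library was 3051.5 bp in replicate 1 and 1878 bp in replicate 2, and 21.6% and 15.3% lay over 10 kb from any. Replicate 2 was the shorter list, with 39721 peaks against 50665.

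The single peak of highest fold lay on chromosome 8 from 18539905 to 18540849 in replicate 1, measured 945 bp and had a fold of 13.9, exceeded by 393 peaks of that list. The nearest peak of replicate 2 was 1264 bp away. To its left, a joined site at 18538404 to 18538672 had folds of 4.43 and 2.92. To its right came 2 more peaks seen in replicate 1 only, at 18543609 to 18544057 with a fold of 5.24 and at 18544621 to 18544928 with a fold of 5.53, and after them a joined site with folds of 8.51 and 7.24. The next 2 single peaks of replicate 1, on chromosome 14 from 10462135 to 10462467 and on chromosome 2 from 45188001 to 45188537, had folds of 8.67 and 8.54. In replicate 2 the strongest single peak, with a fold of 7.10, spanned 6677872 to 6678333 of chromosome 2, at 236 bp from the nearest peak of replicate 1. The following ones, on chromosome 15 from 24144317 to 24144957 and on chromosome 2 from 5910387 to 5910671, had folds of 7.09 and 6.49 and lay 768 and 28395 bp from any peak of replicate 1. Absence from a list means that no peak passed the authors' threshold there.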

How the data were processed

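Peaks had been called by the authors in each ChIP library separately. The submitters' processing notes name Bowtie 0.12.7, an aligner, and MACS3, a peak caller, without settings, and whether the input libraries served as control is not stated in them. Per the file layout, a deposited list holds the start, end and summit offset of a peak, its fold over background as a ratio, and its −log10 q-value. All deposited peaks had a −log10 q of 2 or more. The lists hold no read counts, so depth is unknown and no counting interval is given.

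The series' design text describes the replicates as biological. Replicates are numbered as in the labels, while the peak names inside the lists call replicates 1 and 2 BR3 and BR4. Sites are connected groups of peaks of the 2 libraries that overlap by 1 bp or more. A site takes its summit from the member peak that ranks highest by fold within its list. Spacing and density used the 20 chromosomes, and starts are printed 1-based. With 1 group of 2 libraries no test is possible, and all comparisons are descriptions. The SD is that of the 2 libraries. A fold was read only within its own list.

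The sites named are the 10 of highest rank, the 5 widest, those joining most peaks, the 3 strongest single peaks per library, the 3 densest bins of 1 Mb and the 3 longest stretches without a site. The members, rules and alternatives were chosen with earlier results of these data known. The chains of 7 sites, the summit positions in peaks of 500 to under 1000 bp and the neighbours of the strongest single peak were picked after their values were seen. The joining step was tested on simulated data and checked by comparing all pairs of peaks on 1 chromosome. The software was scipy 1.17.1, pandas 2.3.3, numpy 2.4.6 and matplotlib 3.10.9 under Python 3.11.15.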

Additional observations from a re-analysis of the deposited data

How the results depend on the processing

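With peaks of a q of 1e-05 or lower, the median site width was 462 bp, the median spacing 10264 bp, the share of distances below 2 kb 17.2%, the share of sites in the outermost 10% 41.7% and the share of central summits 72.4%. With the 10000 peaks of highest fold per library there were 6370 sites, with a width of 590.5 bp, a spacing of 48648 bp, 5.12% of distances below 2 kb, 42.4% of sites in the outermost 10% and 75.8% central summits. Fewer peaks entered under both of these settings. When 50% or more of each peak had to be shared the values were 424 bp, 10119 bp, 17.4% and 41.4%. With summits within 100 bp they were 425 bp, 11015 bp, 16.1% and 41.6% (41.63% against 41.57%), and 56.3% of peaks recurred. Leaving out each library in turn leaves 39721 or 50665 peaks instead of sites, with widths of 316 to 317 bp, spacings of 4944 to 6378 bp, 25.9% to 28.9% of distances below 2 kb and 41.3% (41.28% to 41.34%) in the outermost 10%. The cause of the moves under these settings was not tested. With chromosome spans taken from the lists of both factors, an alternative added after seeing the data, the share in the outermost 10% was 41.56%, a move smaller than the spread of 0.0427 points between libraries. It lay between 41.28% and 42.4% under every alternative run. No paired analysis was possible because the result comes from no test and there is 1 group.

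The spacing of sites and the number of single peaks depend on how many peaks each library yielded, and the depth behind that number is not in the lists. Summit positions carry the resolution of the fragments and of the caller. Without a build no site can be tied to a gene.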
